A study of Mus musculus with 32 samples.

Results

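The 10 genes described here encode chromatin regulators that set Hox gene expression: Kmt2a, Men1 and Psip1 of the MLL1 complex, Ezh1, Ezh2, Eed and Suz12 of Polycomb repressive complex 2 (PRC2), and Bmi1, Rnf2 and Cbx2 of Polycomb repressive complex 1 (PRC1). They were chosen by name from 55806 gene identifiers in the tables, and all 10 were counted in every table and tested in every comparison. RNA was sequenced from 32 mouse kidney libraries in 11 groups, in order to ask how 2 tumour mutations in the YEATS domain of ENL, a reader of acetylated histones encoded by Mllt1, alter gene expression when carried by nephron progenitors or by stroma. All animals were on a C57BL/6J background. In the nephron lineage, Six2-TGC tg/+, a transgene known to disturb Six3 expression, drove Cre in nephron progenitors and their descendants. Whole E18.5 kidneys came from Six2-TGC tg/+ animals with Enl+/+ (WT), EnlT1-fl/+ (ENLT1, an insertion) or EnlT3-fl/+ (ENLT3, a small deletion with a substitution), 2 libraries each. These floxed alleles are conditional and give wildtype ENL until Cre removes a cassette, so only cells of the Cre lineage expressed a mutant. Sorted tdT+ Six2-lineage cells also carried a Cre-dependent tdTomato reporter and came from WT and ENLT1 kidneys of both stages, E14.5 and E18.5, with 3 libraries per group. In the stromal lineage, Foxd1GC/+ drove Cre, and this knock-in removes Foxd1 function from its allele in controls as well as mutants. Whole E18.5 kidneys were taken from 3 WT and 3 ENLT1 Foxd1GC/+ animals, and sorted tdT+ Foxd1-lineage cells at E18.5 from 4 WT and 4 ENLT1. Each mutation was heterozygous, and every WT group carried the same Cre allele as its mutants.

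MLL1, the product of Kmt2a, methylates histone H3 at lysine 4 and keeps Hox genes active, with menin (Men1) and LEDGF (Psip1) joining it to chromatin. PRC2 methylates H3 at lysine 27 through either EZH1 or EZH2, built around EED and SUZ12, and PRC1 ubiquitinates histone H2A through RING1B (Rnf2) with BMI1, reading the PRC2 mark through CBX proteins such as CBX2. The opposed activities of MLL and Polycomb complexes hold each Hox gene on or off along the body axis and in the developing kidney, and EZH2 is known to prevail in dividing cells while EZH1 is also kept in cells that have stopped dividing.

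Levels are counts scaled to library size (CPM) with TMM factors within each deposited table, so levels set side by side across tables were not tested. Total counts ran from 67137194 to 157266455 per library, except in sorted Foxd1 cells, where they ran from 2557443 to 3508381 and a member had as few as 24 counts. By chi-square per degree of freedom, which grows with depth, the 2 WT libraries of whole Six2 kidneys stood furthest apart within a group (159). By correlation, WT sorted Foxd1 libraries 1 and 4 did (r = 0.974). The 2 WT libraries of whole Six2 kidneys had mitochondrial shares of 6.35% and 2.73%. Of these, 1 was male and the other female by Xist and Ddx3y, while both ENLT1 libraries were male and both ENLT3 libraries female. Sorted Six2 groups held 1 or 2 male libraries of 3, sorted Foxd1 libraries were all male and whole Foxd1 libraries all female. None of the members is on a sex chromosome. In Six2 samples the part of sex in the differences of the members and of other genes named below was not tested. The summed level of 7 nephron progenitor markers was 1797 to 2099 CPM in WT sorted Six2 cells at E14.5 and 141 to 192 CPM in WT sorted Foxd1 cells, and the sum of 10 stromal markers was 506 to 659 and 7361 to 10076 CPM. As these are bulk samples, fewer cells of a type and less RNA per cell cannot be told apart. Mllt1 itself, the mutated gene, was lower in ENLT1 in whole Foxd1 kidneys (log2 fold change -0.27, Benjamini-Hochberg adjusted p = 0.00102 in the quasi-likelihood test of edgeR), as in 2 of the other 5 comparisons, and was counted in every library. The knock-in allele holds a floxed cassette of wildtype coding sequence ahead of the mutant exon, and its part in these counts was not tested.

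The members lie on 8 autosomes of mm10, Suz12, Ezh1 and Cbx2 sharing chromosome 11, and are given by their Ensembl genes. Kmt2a (ENSMUSG00000002028) is at chr9:44803355-44881296 on the minus strand, Men1 (ENSMUSG00000024947) at chr19:6334979-6340891 on the plus strand and Psip1 (ENSMUSG00000028484) at chr4:83455680-83486459 on the minus strand. Ezh1 (ENSMUSG00000006920) is at chr11:101191115-101226463, Ezh2 (ENSMUSG00000029687) at chr6:47530139-47595341 and Eed (ENSMUSG00000030619) at chr7:89954654-89980983, all on the minus strand, and Suz12 (ENSMUSG00000017548) is at chr11:79993106-80034123 on the plus strand. Bmi1 (ENSMUSG00000026739) is at chr2:18677018-18686629 and Cbx2 (ENSMUSG00000025577) at chr11:119022962-119031270, both on the plus strand, and Rnf2 (ENSMUSG00000026484) at chr1:151458004-151500955 on the minus strand. Values are sums over each gene's exons.

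The promoter stretches below are shown because 3 of the 8 members with a promoter window in the RefSeq table (GRCm38.p6, 250 bases before to 50 bases after the start) hold letters of elements that E2F factors or cell cycle repressors are known to bind. The letters searched on both strands were TTTGGCGC, TTTCCCGC, TTTCGCGC and TTTGCCGC for E2F sites, and TTTGAA and TTCGAA for the cell cycle homology region (CHR), and no E2F and CHR letters overlapped. Capitals mark the matches.
Ezh2: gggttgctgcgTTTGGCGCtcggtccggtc
Suz12: tTTTCCCGCgaattcagTTCAAAgaggcgt
Eed: gatTTTGAAtctctcccTTCAAAaaaagaa
The Ezh2 stretch lies at chr6:47595009-47595038 on the minus strand, with its match 4 bases after the start. That of Suz12 is at chr11:79992886-79992915 on the plus strand, its E2F letters 219 bases before the start and its CHR letters, on the opposite strand, 203 bases before. That of Eed is at chr7:89981147-89981176 on the minus strand, with CHR letters in each direction at 197 and 183 bases before the start. Any of the E2F letters stood in 2.26% of 32851 windows and any of the CHR letters in 19.2%, so a CHR match is common. Psip1 and Cbx2 are named only. The windows of Kmt2a, Men1, Ezh1, Bmi1 and Rnf2 held none of these letters.

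In WT kidneys, the MLL1 complex genes did not share an order of levels. Kmt2a was at 42.1 ± 7.33 CPM (SD, n = 3) in sorted Six2 cells at E14.5, 84.9 ± 5.76 (n = 4) in sorted Foxd1 cells, 119.3 ± 9.72 (n = 3) in whole Foxd1 kidneys, 140.3 ± 6.39 (n = 2) in whole Six2 kidneys and 349.7 ± 6.63 (n = 3) in sorted Six2 cells at E18.5, and no library of one group reached into the next. Men1 was highest where Kmt2a was lowest, at 134.5 ± 12 CPM in sorted Six2 cells at E14.5, with whole Foxd1 kidneys at 88.1 ± 3.97, whole Six2 kidneys at 73.5 ± 5.98, and sorted Six2 cells at E18.5 (52.2 ± 1.05) and sorted Foxd1 cells (51.9 ± 4.21) overlapping. Psip1 had the highest mean level per kilobase of exon of all 10 members in 7 of the 11 groups, with 81.1 ± 0.95 CPM per kb in WT sorted Six2 cells at E14.5 and 26.4 ± 0.35 in WT whole Foxd1 kidneys. In the 3 whole Six2 groups and in WT sorted Six2 cells at E18.5 the mean of Rnf2 stood above it. Kmt2a, the longest, was lowest per kilobase in WT sorted Six2 cells at E14.5 (2.52 CPM per kb).

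Among the PRC2 genes, Ezh2 was at 155.9 ± 5.01 CPM in WT sorted Six2 cells at E14.5, 119.2 ± 1.92 in the same lineage at E18.5, 89.1 ± 2.95 and 70.8 ± 2.41 in whole Six2 and Foxd1 kidneys and 53.3 ± 5.16 in sorted Foxd1 cells. Ezh1 varied less, from 38.1 ± 3.07 CPM in WT sorted Six2 cells at E18.5 to 55.4 ± 2.28 at E14.5. Its libraries overlapped between sorted Six2 cells at E18.5 and sorted Foxd1 cells (39.3 ± 3.72). They also overlapped between whole Six2 (49.0 ± 5.17) and whole Foxd1 kidneys (51.8 ± 2.84). Per kilobase of exon, the WT mean of Ezh2 over Ezh1 was 3.14 ± 0.10 in sorted Six2 cells at E14.5, 3.5 ± 0.29 at E18.5, 2.04 ± 0.28 in whole Six2 kidneys, and 1.52 ± 0.03 in whole and 1.52 ± 0.19 in sorted Foxd1 samples. Eed (103.2 ± 2.78 to 37.4 ± 6.59 CPM) had its means in the same order of groups as Ezh2. Suz12, their partner, was instead highest in WT sorted Six2 cells at E18.5 (135.2 ± 10.4 CPM) and lowest in sorted Foxd1 cells (42.6 ± 3.18).

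All 3 PRC1 genes had their lowest WT level in sorted Foxd1 cells or close to it. Cbx2 covered the widest range, 114.5 ± 7.64 CPM in sorted Six2 cells at E14.5, 47.9 ± 1.00 in whole Foxd1 kidneys, 36.6 ± 1.93 in whole Six2 kidneys, 31.6 ± 1.55 in sorted Six2 cells at E18.5 and 13.1 ± 3.11 in sorted Foxd1 cells, with no overlap between neighbours. Bmi1 was at 157.5 ± 8.97 CPM at E14.5 and 38.1 ± 1.72 in sorted Foxd1 cells. Rnf2 was at 173.8 ± 9.74 and 175.7 ± 20.9 CPM in sorted Six2 cells at E14.5 and E18.5, which overlapped, and at 85.3 ± 0.99 and 87.2 ± 10.1 in whole and sorted Foxd1 samples, which overlapped too.

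**Figure D1:**
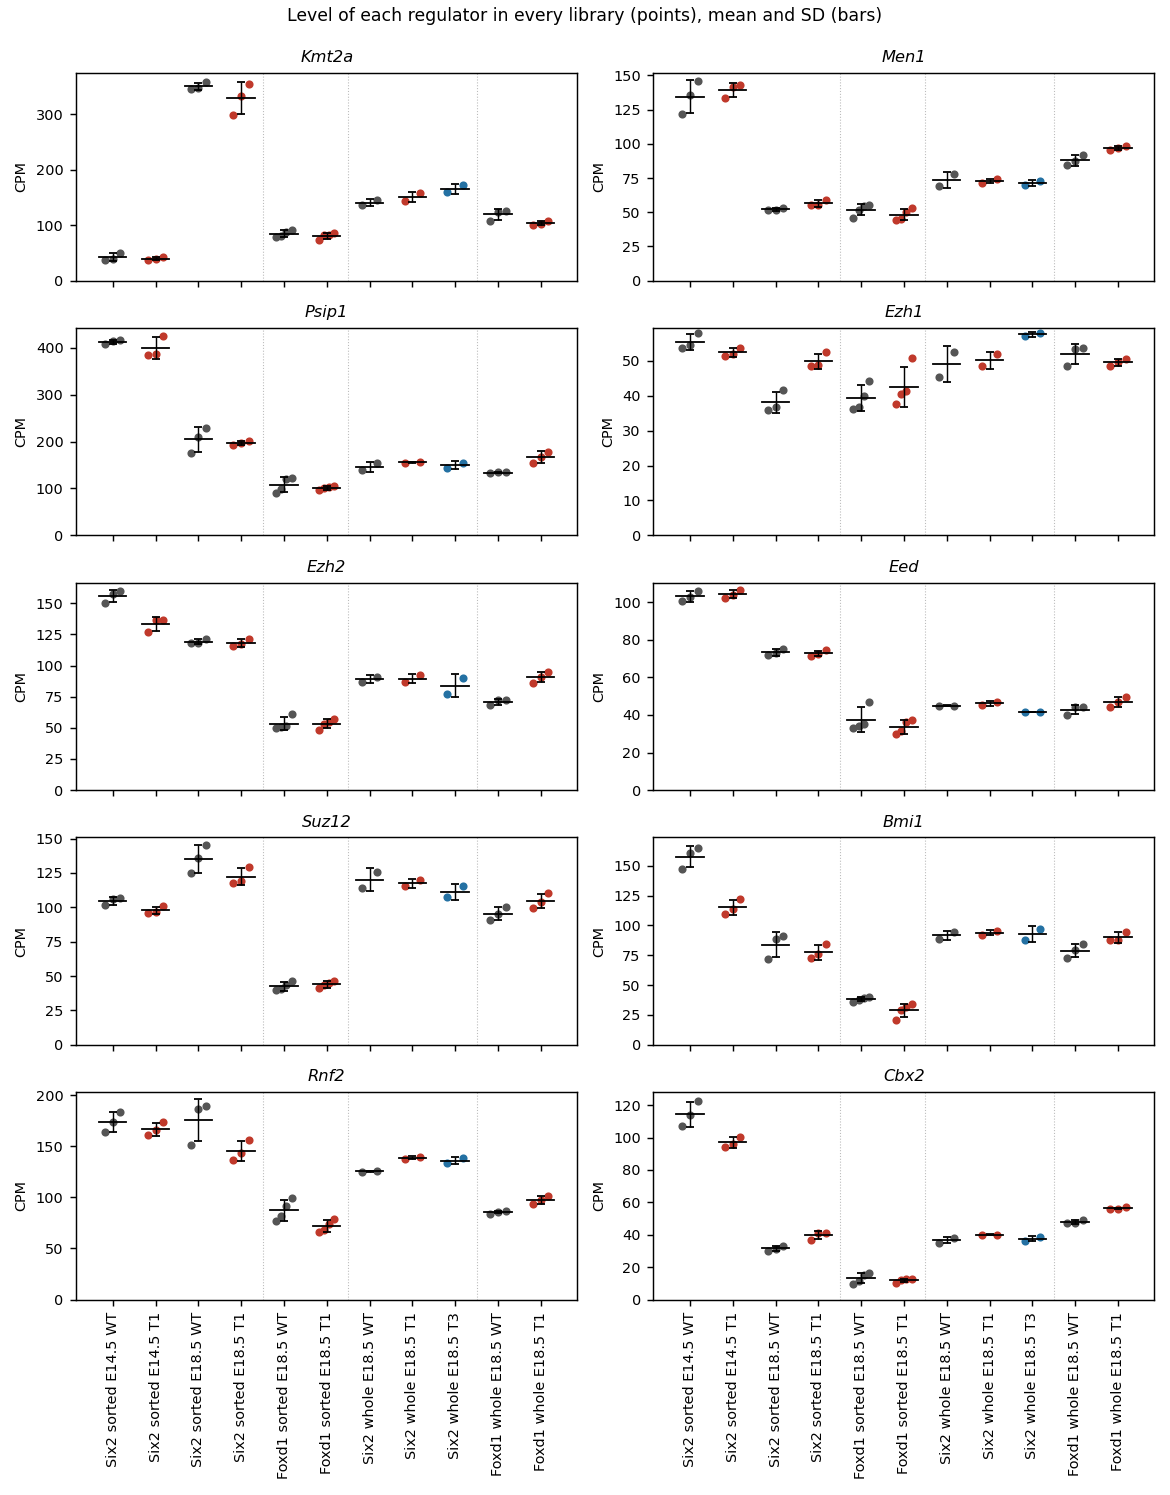
CPM of each of the 10 regulators (one panel each, linear axis from 0) in all 32 libraries, in grey for WT, red for ENLT1 and blue for ENLT3, with the group mean and SD as bars. Kmt2a was at 36.8 to 50.4 CPM in the WT sorted Six2 libraries at E14.5 and 345 to 357 CPM at E18.5, while Cbx2 was at 107 to 122 and 30.2 to 33.3 CPM, and differences between WT and mutant were small beside these.

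Sorted Six2 cells at E14.5 asked what ENLT1 does in nephron progenitors before most nephrons form. Of the 10 members, 3 were lower in ENLT1 and none higher (12.9% of 22387 genes tested passed, 6.38% as higher and 6.5% as lower). These 3 were Polycomb genes, as are most of the members. Bmi1, the PCGF subunit of canonical PRC1, was at 160, 165 and 147 CPM in the WT libraries and 122, 109 and 114 CPM in the ENLT1 libraries. The groups did not overlap, and Bmi1 fell by 0.44 on the log2 scale (SE 0.060, adjusted p = 0.00271 by edgeR's quasi-likelihood test). Ezh2, the catalytic subunit of PRC2, was at 157, 160 and 150 CPM in WT and 136, 136 and 127 CPM in ENLT1, a fall of 0.21 (SE 0.047, adjusted p = 0.0218 by edgeR). Cbx2, which binds the PRC2 mark, was at 114, 122 and 107 CPM in WT and 101, 96.1 and 94.2 CPM in ENLT1 (log2 fold change -0.22, SE 0.058, edgeR adjusted p = 0.0398). For both genes every ENLT1 library was below every WT library.

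The other 7 members did not pass the test at E14.5, with log2 fold changes from -0.08 (Suz12) to 0.07 (Men1), though the Suz12 libraries of the groups did not overlap. The same libraries had 30 of 35 Hox genes higher and none lower, with a median log2 fold change of 0.88. Among nephron progenitor markers 6 of 7 were lower in ENLT1 (sums of 1797 to 2099 CPM in WT and 926 to 1125 in ENLT1), and 7 of 10 stromal markers were higher and 1 lower (506 to 659 and 953 to 1870 CPM), while 2 of 22 proliferation genes were lower (5420 to 5707 and 5453 to 5552 CPM). The part of these in the 3 falls was not tested. Without WT replicate 1 or 2 or ENLT1 replicate 2 or 3, left out in turn, Bmi1 alone still passed, with Ezh2 at adjusted p from 0.0566 to 0.0845 and Cbx2 from 0.0803 to 0.133 in those edgeR fits. The Cbx2 call was also lost without ENLT1 replicate 1 (0.0526), so in 5 of 6 such fits, and under library-size scaling (0.0673). None of the 3 reached the 1.5-fold change that the study required beside the adjusted p, a rule that 6.4% of genes met here.

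Sorted Six2 cells at E18.5 gave another set of members. Of the 10, 2 were higher and 1 lower in ENLT1 (20.3% of 22685 genes passed, 9.58% as higher and 10.7% as lower, and 11.7% also reached 1.5-fold, which no member did). Ezh1, the second PRC2 methyltransferase, was at 41.6, 35.9 and 36.9 CPM in WT and 48.5, 52.4 and 48.7 CPM in ENLT1, and the groups did not overlap. It rose by 0.39 on the log2 scale (SE 0.080, edgeR adjusted p = 0.00326). Cbx2 was at 33.3, 30.2 and 31.4 CPM in WT and 37.1, 41.4 and 41.1 CPM in ENLT1, again without overlap (log2 fold change 0.34, SE 0.081, edgeR adjusted p = 0.0088). Rnf2, the E3 ligase of PRC1, was at 152, 189 and 186 CPM in WT and 143, 136 and 156 CPM in ENLT1. Its groups overlapped, since WT replicate 1 lay below the highest ENLT1 library, and it fell by 0.27 (SE 0.085, edgeR adjusted p = 0.042).

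Kmt2a (-0.08), Psip1 (-0.05), Ezh2 (-0.01), Suz12 (-0.14), Bmi1 (-0.11), Men1 (0.12) and Eed did not pass at E18.5, although the Men1 libraries did not overlap and Men1 passed under library-size scaling (edgeR adjusted p = 0.036). For Ezh2 and Eed the 95% intervals of the log2 fold change were narrow, -0.12 to 0.11 for both. Hox genes were higher for 34 of 35 in these libraries, with a median of 1.74. The ENLT1 libraries also differed in cell type markers, all 15 genes of differentiating nephrons being lower (3467 to 4092 CPM in WT and 465 to 584 in ENLT1), 8 of 10 macrophage genes higher (39.8 to 42.0 and 108 to 127 CPM) and 5 of 7 tested red cell genes higher (107 to 211 and 1553 to 2276 CPM). Nephron progenitor genes were lower for 6 of 7 (1077 to 1390 and 402 to 512 CPM), and stromal genes higher for 7 of 10 and lower for 3 (340 to 590 and 825 to 952 CPM). The part of these cells in the rise of Ezh1 and Cbx2 was not tested. Rnf2 no longer passed without WT replicate 2 or 3 or ENLT1 replicate 1 or 2 (edgeR adjusted p 0.115 to 0.181) or under library-size scaling (0.135), nor Cbx2 without ENLT1 replicate 2 or 3 (0.05 and 0.054).

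The effect of ENLT1 differed between the stages for 2 of 10 members (8.16% of 25222 genes passed the stage by genotype test, 3.94% with a higher and 4.22% with a lower effect at E18.5). For Cbx2, lower in ENLT1 at E14.5 and higher at E18.5, the difference of the log2 fold changes was 0.57 (SE 0.093, edgeR adjusted p = 0.00169). For Ezh1 it was 0.47 (SE 0.094, edgeR adjusted p = 0.00749), and this call was lost without WT or ENLT1 replicate 2 of E18.5 (adjusted p 0.0515 and 0.053). Ezh2 (0.21, adjusted p = 0.0812 by edgeR) and Bmi1 (0.34, adjusted p = 0.12) did not pass, so a stage difference in their response was not shown, though Ezh2 passed under library-size scaling and the filter at 1 CPM (0.0363 and 0.0452).

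Sorted Foxd1 cells addressed the stroma itself. None of the 10 members passed the edgeR test (10.7% of 12717 genes passed, 5.94% as higher and 4.78% as lower, and 5.81% by the fold rule), and 2 had an unadjusted p under 0.05. Bmi1 was at 36.2, 39.2, 39.9 and 37.2 CPM in WT and 33.9, 31.5, 29.4 and 20.9 CPM in ENLT1. The groups did not overlap, ENLT1 replicate 4 being the lowest, and the log2 fold change was -0.40 (SE 0.131, edgeR adjusted p = 0.0595). Rnf2 was at 91.4, 76.6, 99.2 and 81.7 CPM in WT and 78.6, 65.7, 74.1 and 67.8 CPM in ENLT1, with 1 WT library below the highest ENLT1 library (log2 fold change -0.28, SE 0.095, edgeR adjusted p = 0.065). Both genes passed without ENLT1 replicate 1 (0.0299 and 0.0399), without a filter on low counts and with the replicate block, Rnf2 also without WT replicate 2 (0.0366) and Bmi1 by the exact test (0.0371). The approximate 95% intervals ran from -0.18 to 0.19 for Ezh2 and from -0.53 to 0.21 for Cbx2, so smaller differences were not detectable at this depth. In the same cells 17 of 28 Hox genes tested were higher and 1 lower, the median log2 fold change being 0.78. Also, 6 of 10 macrophage genes were higher (139 to 345 CPM in WT and 278 to 394 in ENLT1). Stromal markers were lower for 4 of 10 and higher for 1 (7361 to 10076 CPM in WT and 7395 to 8376 in ENLT1). Genes of differentiating nephrons were lower for 4 of 13 tested and higher for 1. The part of these cells was not tested.

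No member passed the lineage by genotype test at E18.5 by edgeR (15.9% of 14869 genes passed, 8.25% with a higher and 7.63% with a lower effect in Foxd1 cells), and 3 had an unadjusted p under 0.05. Cbx2 came nearest, its effect being 0.52 lower on the log2 scale in sorted Foxd1 than in sorted Six2 cells (SE 0.189, edgeR adjusted p = 0.0668), and it passed under library-size scaling and with DESeq2 (adjusted p 0.0419 and 0.0463) and without WT replicate 3 or 4 of the Foxd1 cells (0.017 and 0.0384). Ezh1 was at -0.30 (adjusted p = 0.151) and Men1 at -0.25 (adjusted p = 0.158) in the edgeR fit, and Ezh1 passed without ENLT1 replicate 3 of the Foxd1 cells (0.0388). Lineage and table cannot be told apart in this test, since Six2 and Foxd1 cells were sequenced with reads of different length and to different depth.

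**Figure D2:**
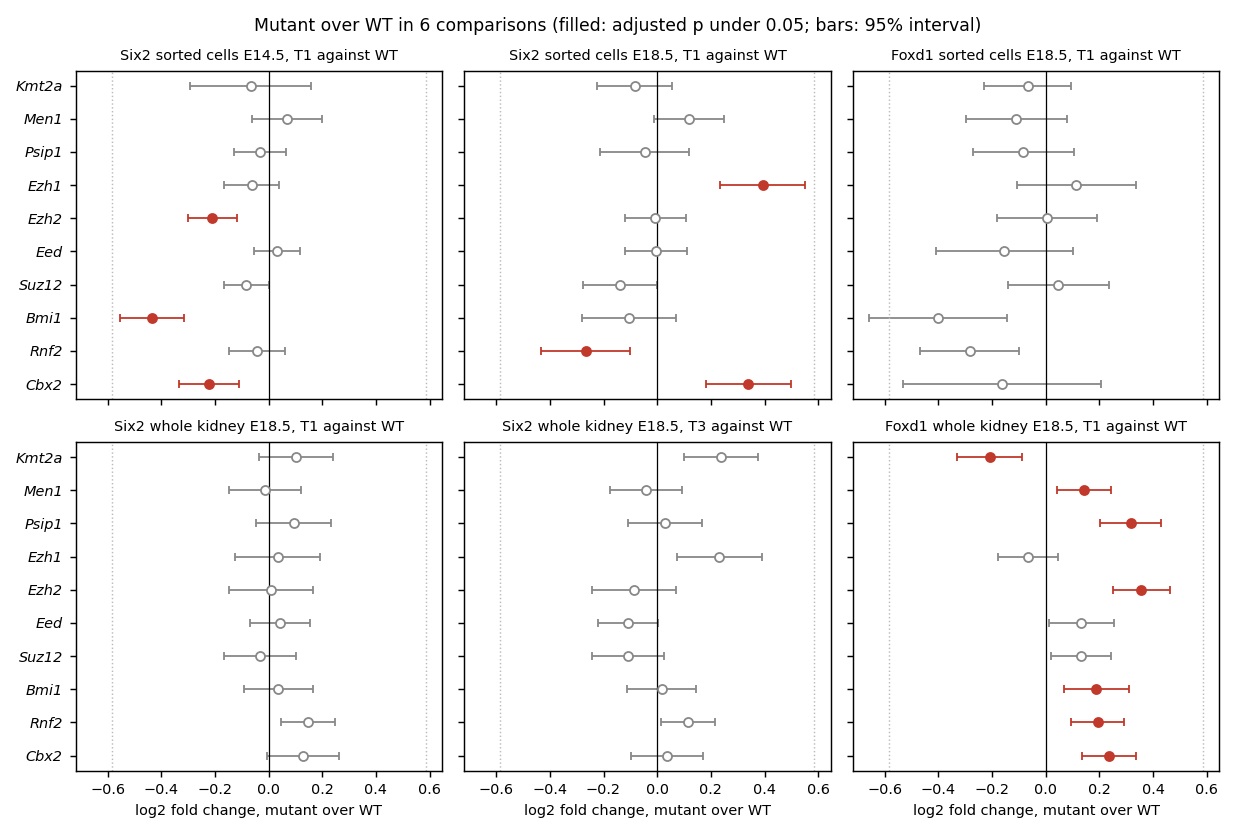
Log2 fold change of mutant over WT for the 10 regulators in 6 comparisons, with 95% intervals, filled where the edgeR adjusted p was under 0.05 and with dotted lines at the 1.5-fold change the study used. Filled points are 3 in sorted Six2 cells at E14.5, 3 at E18.5, none in sorted Foxd1 cells or whole Six2 kidneys and 7 in whole Foxd1 kidneys, and no point lies beyond the dotted lines.

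In whole E18.5 Six2 kidneys no member passed for ENLT1 against WT (14.2% of 23931 genes passed, 5.02% as higher and 9.16% as lower, and 7.77% by the fold rule) or for ENLT3 against WT (17.5%, with 7.27% higher, 10.2% lower and 9.62% by the fold rule) in the edgeR test, and 1 and 2 members had an unadjusted p under 0.05. The member values for ENLT1 ran from -0.03 (Suz12) to 0.15 (Rnf2). Rnf2 was at 126 and 125 CPM in WT and 138 and 140 CPM in ENLT1 (SE 0.052, adjusted p = 0.113 by edgeR). The libraries of Rnf2, Psip1, Eed and Cbx2 did not overlap between WT and ENLT1. With 2 libraries per group such separation says little, and the share of all genes showing it was not counted. For ENLT3, Kmt2a was at 136 and 145 CPM in WT and 172 and 159 CPM in ENLT3, without overlap, with a log2 fold change of 0.24 (SE 0.070, edgeR adjusted p = 0.0568). It passed under 5 other settings, with adjusted p from 0.0136 without a filter on low counts to 0.0478 by the exact test, and without WT replicate 2 (0.0247). Ezh1 was at 52.6 and 45.3 CPM in WT and 58.0 and 57.0 CPM in ENLT3 (0.23, SE 0.081, edgeR adjusted p = 0.0942). The libraries of Ezh1, of Rnf2 (higher) and of Eed (lower) did not overlap between WT and ENLT3 either. Here 26 and 28 of 36 Hox genes were higher in ENLT1 and ENLT3, with medians of 0.71 and 0.89, while all 15 genes of differentiating nephrons were lower in both (3257 to 3493 CPM in WT, 981 to 1102 in ENLT1 and 923 to 986 in ENLT3). Nephron progenitor genes were lower for 7 of 7 with ENLT1 and 6 of 7 with ENLT3, and macrophage genes higher for 6 of 10 with each. ENLT3 against ENLT1 had no member past the edgeR test (0.00418% of genes passed) and 2 with an unadjusted p under 0.05. Sex and mutation cannot be told apart in ENLT3 against ENLT1. The comparisons of ENLT1 and of ENLT3 against WT share their WT libraries, and the part of sex in them was not tested.

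Whole Foxd1 kidneys gave the most members past the test, 6 higher and 1 lower of 10 (33.4% of 20145 genes passed, 16.4% as higher and 17% as lower, and 10.2% by the fold rule, which no member met). Ezh2 was at 72.3, 68.0 and 72.0 CPM in WT and 94.7, 90.7 and 86.4 CPM in ENLT1, a rise of 0.36 on the log2 scale (SE 0.054, edgeR adjusted p = 0.000276). Psip1, the LEDGF gene, was at 135, 132 and 135 CPM in WT and 179, 168 and 154 CPM in ENLT1, a rise of 0.32 (SE 0.058, edgeR adjusted p = 0.00113). Neither gene overlapped between the groups. The PRC1 genes rose together, Cbx2 by 0.23 (adjusted p = 0.00332), Rnf2 by 0.19 (adjusted p = 0.0101) and Bmi1 by 0.19 (adjusted p = 0.0305), all by edgeR and all without overlap of the libraries. Men1 was at 87.8, 92.1 and 84.2 CPM in WT and 95.8, 96.9 and 98.8 CPM in ENLT1 (0.14, edgeR adjusted p = 0.0499), a call lost under 4 other settings at adjusted p from 0.0517 to 0.0889 and without WT replicate 1 or 3 or ENLT1 replicate 2 or 3 (0.0931 to 0.22).

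Kmt2a alone fell, from 124, 108 and 126 CPM in WT to 101, 107 and 102 CPM in ENLT1 (-0.21, SE 0.062, edgeR adjusted p = 0.0198). The lowest WT and highest ENLT1 libraries, 108 and 107 CPM, lay close together. Without WT replicate 1 or 3 or ENLT1 replicate 3 its adjusted p was 0.0709 to 0.0886. The Bmi1 call was lost without WT replicate 1 or 2 or ENLT1 replicate 1 (0.0751 to 0.099). Eed (0.13), Suz12 (0.13) and Ezh1 (-0.07) did not pass. In these kidneys 19 of 22 proliferation genes were higher in ENLT1 (2089 to 2126 CPM in WT and 2647 to 2854 in ENLT1), 7 of 7 nephron progenitor genes were higher (500 to 535 and 755 to 925 CPM), 10 of 15 genes of differentiating nephrons were lower (3613 to 3894 and 2027 to 2652 CPM), and the mitochondrial share was 2.89% to 3.39% in WT and 1.18% to 1.55% in ENLT1. Xist, a long nuclear RNA, was at 820 to 977 CPM in WT and 440 to 541 CPM in ENLT1. The part of these in the members' differences was not tested, and neither Ezh2 (0.01) nor Psip1 (-0.08) passed in sorted Foxd1 cells. Hox genes here were higher for 13 and lower for 6 of 34, with a median of 0.09.

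The ratio of the PRC2 methyltransferases, a description without a test, was lower in ENLT1 than in WT in sorted Six2 cells at both stages without overlap. At E14.5 the Ezh2 over Ezh1 ratio per kilobase was 3.08 to 3.26 in WT and 2.75 to 2.92 in ENLT1, and at E18.5 it was 3.17 to 3.67 and 2.58 to 2.68. Ezh2 was lower in ENLT1 at the first stage, a call lost without WT replicate 1 or 2 or ENLT1 replicate 2 or 3. Ezh1 was higher at the second. In whole Foxd1 kidneys the ratio was 1.5 to 1.56 in WT and 1.94 to 2.17 in ENLT1, the other direction. In sorted Foxd1 cells the ranges overlapped (1.26 to 1.71 and 1.15 to 1.69). In whole Six2 kidneys ENLT1 (1.86 to 2.13) overlapped WT (1.84 to 2.24), and ENLT3 (1.49 to 1.76) lay below WT.

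**Figure D3:**
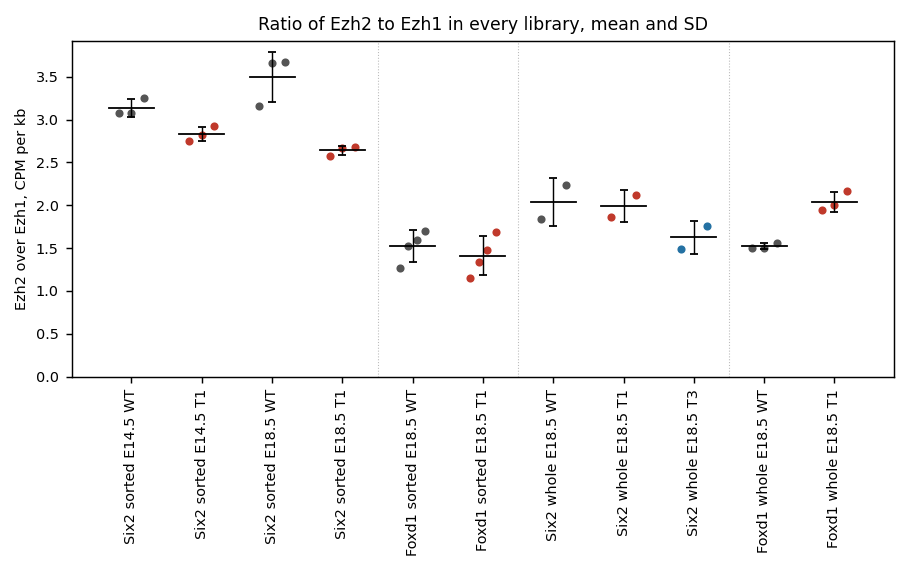
Ratio of Ezh2 to Ezh1 in CPM per kilobase of exon (linear axis from 0) in each library, with group mean and SD, in grey for WT, red for ENLT1 and blue for ENLT3. In sorted Six2 cells at E18.5 the WT libraries sit between 3.17 and 3.67 and the ENLT1 libraries between 2.58 and 2.68, while in whole Foxd1 kidneys the ENLT1 libraries (1.94 to 2.17) sit above WT (1.5 to 1.56).

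Between E14.5 and E18.5 in sorted WT Six2 cells, 9 of 10 members passed, 2 higher and 7 lower at E18.5 (73.1% of 25222 genes passed, 36.4% as higher and 36.6% as lower), so that passing is the rule for any gene here. Kmt2a rose 8.31-fold, from 50.4, 36.8 and 38.9 CPM to 345, 347 and 357 CPM (log2 fold change 3.06, SE 0.107, edgeR adjusted p = 4.79e-12). Its partner Men1 fell by 1.37 on the log2 scale, from 122, 146 and 136 CPM to 51.4, 53.4 and 51.8 CPM (SE 0.065, edgeR adjusted p = 1.07e-10), and Psip1 fell by 1.01 (SE 0.079, edgeR adjusted p = 2.7e-08). The MLL1 genes thus moved in opposite directions.

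Of the PRC2 genes, Ezh1 (-0.54), Eed (-0.49) and Ezh2 (-0.39) fell and Suz12 rose (0.37), with edgeR adjusted p from 2.52e-07 for Eed to 8.38e-05 for Suz12. Cbx2 fell by 1.85, more than any other member (SE 0.067, edgeR adjusted p = 6.94e-12), from 114, 122 and 107 CPM to 33.3, 30.2 and 31.4 CPM. Bmi1 fell by 0.91 (SE 0.088, edgeR adjusted p = 2.98e-07), and Rnf2 did not pass (0.02, approximate 95% interval -0.14 to 0.17). By the thresholds that the study used between stages, a 2-fold change and an adjusted p under 0.01, 1 member was higher (Kmt2a) and 3 lower (Cbx2, Men1 and Psip1), against 45.5% of all genes. In ENLT1 cells 9 members also passed (72.6% of genes, 36.9% as higher and 35.8% as lower, and 44.2% by the stage thresholds), with Kmt2a at 3.05, Suz12 at 0.32, Men1 at -1.31, Cbx2 at -1.28, Psip1 at -1.01, Bmi1 at -0.57, Eed at -0.52, Rnf2 at -0.20 and Ezh2 at -0.17 by edgeR, while Ezh1 (-0.07) did not pass. The calls of Ezh2 and Rnf2 in ENLT1 were lost under 4 other settings each, RLE scaling among them (adjusted p 0.184 and 0.291), and that of Rnf2 without ENLT1 replicate 1 or 2 of either stage (0.0628 to 0.122). RLE scaling moved the members by a median of 0.13 in WT and library-size scaling by -0.14.

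The stage comparison moved with transcript length, and sample handling differed between the stages. Across 16522 protein-coding genes Spearman's rho between exon length and the log2 fold change was 0.206 in WT and 0.235 in ENLT1, a description over genes that share the same libraries, and the median went from -0.56 in the shortest of 10 bins of exon length to 0.89 in the longest. Kmt2a, with 16670 bases of exon, was above 89.3% of the genes in that longest bin, while Suz12 and Rnf2 were above the median of their bins and the other 7 below it. The H3K4 methyltransferases Kmt2c and Kmt2b rose with Kmt2a, by 2.73 and 2.68, as did Ash1l, an H3K36 methyltransferase, by 2.58. Subunits shared by the KMT2 complexes were lower, Dpy30 at a log2 fold change of -2.09 and Ash2l at -1.43, with Paxip1 at -1.33. In all, 10 of 19 other MLL-family complex genes were higher and 9 lower. The mitochondrial share was 0.60% to 0.80% at E14.5 and 4.63% to 7.59% at E18.5. Xist was at 26.3 to 36.0 CPM in the 3 E14.5 libraries that express it and 504 to 643 CPM in the 4 such libraries of E18.5. E14.5 kidneys were dissociated with trypsin and E18.5 kidneys with collagenase, so stage and dissociation cannot be told apart. In WT, 21 of 22 proliferation genes were lower at E18.5 (5420 to 5707 CPM at E14.5 and 2282 to 2368 at E18.5). All 15 genes of differentiating nephrons were higher at E18.5 (155.75 to 182.5 CPM at E14.5 and 3467 to 4092 at E18.5, in WT).

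**Figure D4:**
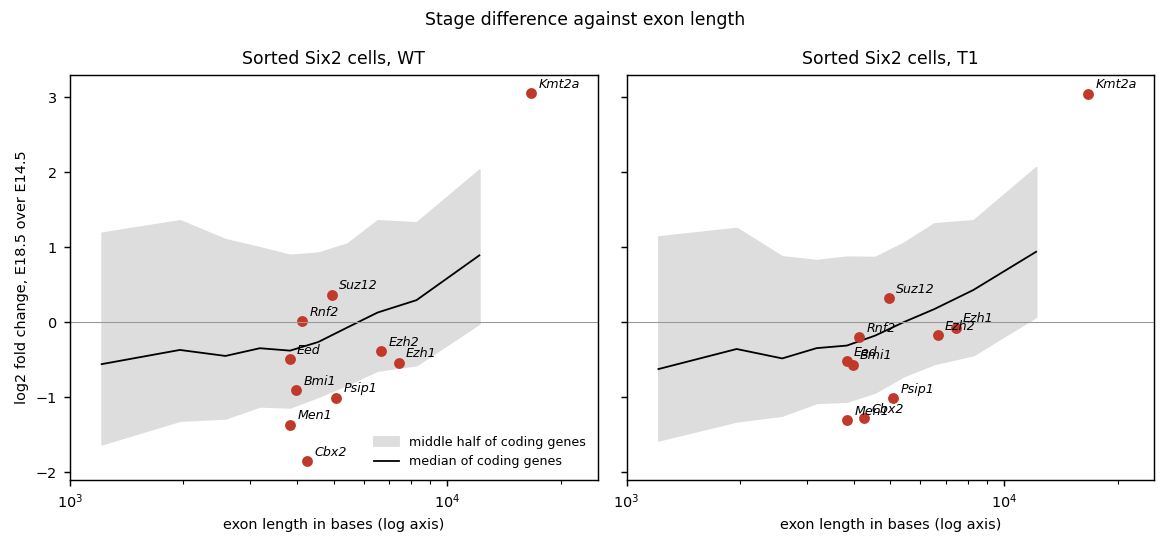
Log2 fold change of E18.5 over E14.5 in sorted Six2 cells against exon length in bases (log axis), for WT (left) and ENLT1 (right), with the 10 regulators as red points, the median of protein-coding genes per bin of exon length as a line and their middle quartiles in grey. Kmt2a lies at 3.06 in WT and 3.05 in ENLT1, far above the line, which ends at 0.89 and 0.94, and Cbx2 lies lowest in WT at -1.85.

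Beyond the 10 members, 4 lists of other MLL, PRC2, PRC1 and erasing enzyme genes held 62 genes, of which 34 passed in at least 1 of 6 comparisons of mutant and WT, beside 44.2% of the 26283 genes tested in any of them. Of the 9 other PRC2 genes tested, Phf19, a subunit that brings PRC2 to methylated chromatin, was lower in all 4 Six2-lineage comparisons. Its log2 fold change was -0.81 in whole kidneys with ENLT1, -0.88 with ENLT3, -0.73 at E14.5 in sorted cells and -1.39 in those of E18.5, with edgeR adjusted p from 1.82e-05 to 0.00102. In whole Foxd1 kidneys Phf19 was higher, by 0.51 (edgeR adjusted p = 0.000173), as were Rbbp4 (0.26), Epop (0.25) and Rbbp7 (0.22), with Phf1 lower (-0.32), and in sorted Foxd1 cells it did not pass. The effect of ENLT1 on Phf19 differed between stages (-0.65, adjusted p = 0.0414) and between lineages (1.19, adjusted p = 0.00789) in the edgeR interaction tests. Jarid2, which also guides PRC2, passed in 1 of the 6 comparisons, as lower at E14.5 (-0.34), and its difference between stages passed (0.45, edgeR adjusted p = 0.016).

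In sorted Six2 cells at E14.5, 2 of 25 other PRC1 genes were higher, among them Cbx6 (0.29), a CBX protein, and 4 lower, led by Mga (-0.38), Kdm2b (-0.30) and Pcgf3 (-0.23). At E18.5, 4 were higher, among them Cbx8 (0.51), E2f6 (0.39) and Cbx6 (0.30), and 3 lower, Yaf2 (-0.72), Auts2 (-0.33) and Mga (-0.20). In sorted Foxd1 cells 1 of 24 tested was higher and 2 lower, the latter Pcgf3 (-0.40) and Bcorl1 (-0.36). In whole Foxd1 kidneys 7 were higher, led by Bcor (0.49), Kdm2b (0.41) and Bcorl1 (0.32), genes of variant PRC1, and 2 lower, Cbx7 (-0.32) and Phc3 (-0.24). Whole Six2 kidneys had 1 higher with ENLT1, Rybp (0.29), and 2 higher and 1 lower with ENLT3, Scml2 (0.38), Phc3 (0.18) and L3mbtl2 (-0.34). Sex was not balanced between the mutant and WT libraries of these kidneys, and its part was not tested. In the edgeR interaction tests the effect of ENLT1 differed between stages for Yaf2 (-0.70), Pcgf3 (0.34) and E2f6 (0.31), and between lineages for E2f6 (-0.61) and Pcgf3 (-0.52). Over all genes, 12.9% passed in sorted Six2 cells at E14.5, 20.3% at E18.5, 10.7% in sorted Foxd1 cells and 33.4% in whole Foxd1 kidneys. In whole Six2 kidneys 14.2% passed with ENLT1 and 17.5% with ENLT3. The stage and lineage interactions had 8.16% and 15.9%.

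Few of the other MLL-family and erasing enzyme genes passed outside whole Foxd1 kidneys. Of all genes, 33.4% passed in whole Foxd1 kidneys. In the other comparisons of mutant and WT, 10.7% (sorted Foxd1 cells) to 20.3% (sorted Six2 cells at E18.5) did. Of 19 MLL-family genes tested in whole Foxd1 kidneys, 5 were higher, led by Hcfc1 (0.27), Ash2l (0.22) and Wdr82 (0.20), and 1 was lower, Kmt2d (-0.55), beside the fall of Kmt2a. At E14.5 Hcfc2 was higher (0.26) and Hcfc1 (-0.42) and Ash2l (-0.16) lower, Wdr82 was lower in sorted Foxd1 cells (-0.26), and Setd1b was higher with ENLT3 (0.42). No MLL-family gene passed in sorted Six2 cells at E18.5 or in whole Six2 kidneys with ENLT1 by edgeR. Among enzymes that remove the Polycomb marks, Kdm6b was higher with ENLT3 (0.51), Kdm6a in whole Foxd1 kidneys (0.20), and Asxl3, a partner of the H2A deubiquitinase, was lower in sorted Six2 cells at E18.5 (-0.26) and sorted Foxd1 cells (-0.73). The effect differed between stages for Hcfc1 (0.47) and Ash2l (0.27) and between lineages for Asxl3 (-0.49), Wdr82 (-0.40), Bap1 (-0.38) and Cxxc1 (-0.34).

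**Figure D5:**
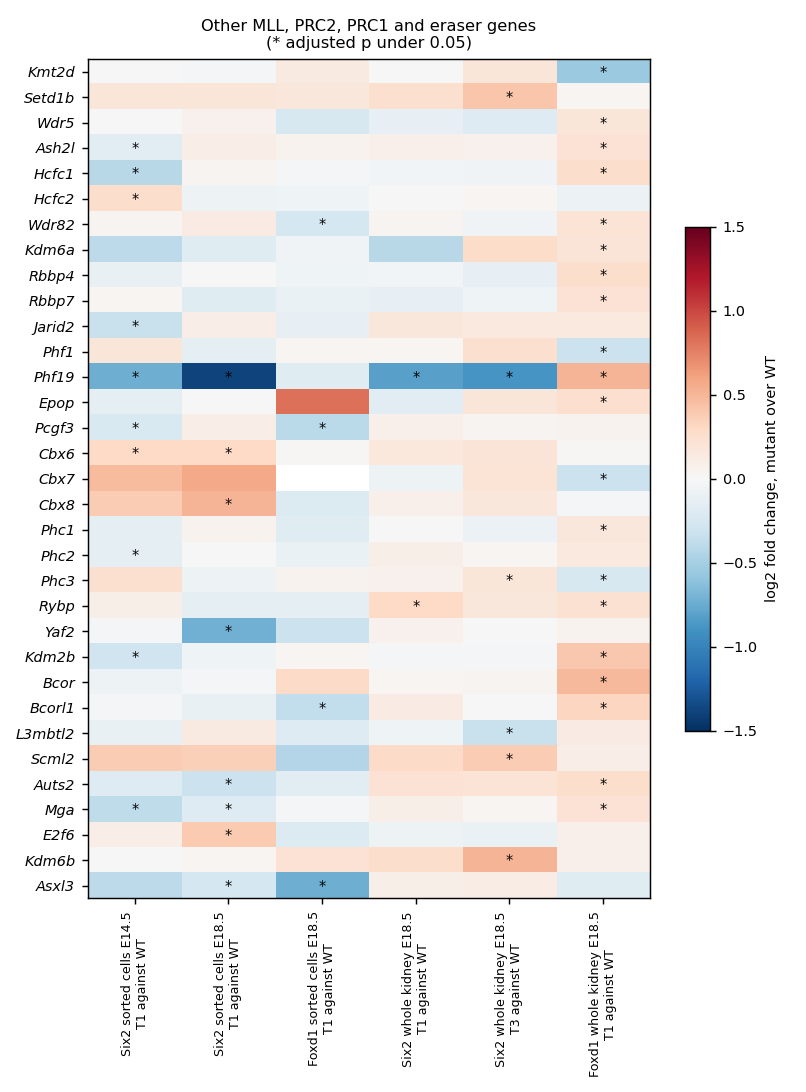
Log2 fold change of mutant over WT (colour, from -1.5 in blue to 1.5 in red) for 33 of the 34 other MLL, PRC2, PRC1 and erasing enzyme genes that passed in at least 1 of 6 comparisons (columns), 1 being left out, with a star where the edgeR adjusted p was under 0.05 and white where a gene was not tested or near 0. Phf19 is the darkest row, from -0.73 to -1.39 in the Six2 columns and 0.51 in whole Foxd1 kidneys.

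Across the 32 libraries, after centring log2 CPM within each table, the genes closest to each member were found among 11778 genes kept in every table, a description over points that share libraries and in which only the sorted Six2 table spans 2 stages. Kmt2a lay nearest to Ino80d, Smg1 and Tpt1 (Pearson r 0.994 to 0.995), Men1 to Rrp1, Adprhl2 and Usp21 (0.986 to 0.987), Psip1 to Set, Alyref and Dcakd (0.973 to 0.981) and Cbx2 to Ccar2, Sf3a3 and Hsdl1 (0.976 to 0.984). Eed lay nearest to Enoph1, Zfp668 and Ttc30b, Suz12 to Yme1l1, Ccni and Tbc1d15, and Bmi1 to B230219D22Rik, Fam3c and Nudcd1, with r from 0.889 to 0.932. The values were lower for Ezh2 (Top2b and Anp32b, 0.882 and 0.871), Rnf2 (Ube3a, Rab6a and Ypel5, 0.826 to 0.862) and Ezh1 (Nrxn3, Man1c1 and Ninl, 0.795 to 0.827). Among the members themselves, r was -0.98 between Kmt2a and Men1, 0.97 between Men1 and Cbx2, and 0.27 between Ezh1 and Ezh2. In sorted WT Six2 cells the stage differences of Kmt2a (3.06), Men1 (-1.37) and Cbx2 (-1.85) exceeded any between mutant and WT. Their share in these r values was not separated.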

How the data were processed

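The deposited tables hold raw counts per gene. Per the study's methods, the authors made stranded mRNA libraries from whole kidneys and ultra-low-input libraries from sorted cells, aligned paired reads to mm10 with HISAT2, and counted them with HTSeq without regard to strand. The annotation release is not given in the sources used here. Identifiers were named from GENCODE on GRCm38. Members share at most 9.5% of exon bases with another gene (Psip1 with Snapc3), and such reads could not be assigned by strand. Genes were filtered with filterByExpr (minimum count 10, total 15), scaled by TMM and tested with edgeR 4.0.16's quasi-likelihood test (R 4.3.3) over each whole table, passing at an adjusted p under 0.05. log2 CPM used a prior count of 2. Intervals called 95% are 1.96 SE either side of the estimate, a normal multiple. They are narrower than the quasi-likelihood test would give. DESeq2 1.42.0 and the edgeR exact test were alternatives. Scripts were tested on simulated data. Whether libraries came from separate embryos is not stated, so p-values measure the spread between libraries. Libraries of a group were distinct (33 pairs, chi-square per degree of freedom 1.36 to 159). All 10 members were named in each comparison, with the 3 nearest genes and up to 3 genes per direction from each list. A few of these genes are not reported here. The members and lists were chosen with earlier results of these data known.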

Additional observations from a re-analysis of the deposited data

Results flagged for a closer look

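Ezh2 in sorted WT Foxd1 cells stood out because 1 of the 4 libraries lay far from the others, at 61.0 CPM beside 50.2, 50.4 and 51.8 CPM. Its gap took 0.852 of the group's range, and chance flags about 1 in 20 groups, of which 20 were looked at. Cbx2 and Ezh1 stood out because the effect of ENLT1 in sorted Six2 cells differed between E14.5 and E18.5, by 0.57 and 0.47 on the log2 scale in the edgeR interaction test.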

How the results depend on the processing

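No member changed direction past the threshold under any alternative, and of 1840 values of single members under alternatives, 1741 kept their side of the threshold, 69 lost it and 30 gained it. Counts of members passing moved as follows. In whole Six2 kidneys the 0 members higher with ENLT1 became 1 under library-size scaling, the filter at 1 CPM and DESeq2, and the 0 higher with ENLT3 became 3 under library-size scaling, 2 without a filter, 1 under the filter at 1 CPM, the exact test and DESeq2, and 0 to 1 leaving out single libraries. In sorted Six2 cells at E14.5 the 3 lower became 0 under the study's fold threshold, 2 under library-size scaling and the replicate block and 1 to 3 leaving out single libraries. At E18.5 the 1 lower became 0 under library-size scaling and the fold threshold and 0 to 1 leaving out libraries, and the 2 higher became 3 under library-size scaling, 0 under the fold threshold and 1 to 2 leaving out libraries. In sorted Foxd1 cells the 0 lower became 2 without a filter and with the replicate block, 1 by the exact test and 0 to 2 leaving out libraries. In whole Foxd1 kidneys the 6 higher and 1 lower became 0 and 0 under the fold threshold, and 4 to 5 and 0 to 1 leaving out libraries, and the 6 became 5 under RLE scaling, the filter at 1 CPM, no filter and the block. Between stages the 2 higher and 7 lower became 1 and 3 under the study's thresholds in WT and in ENLT1, and the 7 in ENLT1 became 5 under RLE scaling, the filter at 1 CPM, the block and DESeq2 and 6 to 7 leaving out libraries. In the stage interaction the 2 higher became 3 under library-size scaling and the filter at 1 CPM, and leaving out libraries gave 0 to 1 lower and 1 to 2 higher, and in the lineage interaction the 0 lower became 1 under library-size scaling and DESeq2 and 0 to 1 leaving out libraries. Replicate numbers did not pair the libraries (correlations of same-numbered deviations -0.079 to 0.10). With the replicate block, Cbx2 at E14.5 was at adjusted p = 0.052 and Men1 in whole Foxd1 kidneys at 0.0889. The low depth of sorted Foxd1 cells limits what could be detected there.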
